A study of Mus musculus with 32 samples.

Results

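The genes described here are Trp53, which encodes the transcription factor p53, and 35 genes known from textbook work as its transcriptional targets. They were listed by name, with no threshold on measured values, but with earlier results of these data known, the late rise in wild-type spleen cells among them. They are 36 of the 43345 mouse genes counted in each of the 2 deposited tables. Each symbol matched 1 gene in both tables. Of the 36, 34 passed the filter on low counts in each table. Perp and Eda2r did not, with 0 to 15 counts per spleen library and 0 to 2 counts per CH12F3 library. They were tested only in a refit without the filter, and counts this low leave any change uncertain.

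p53 is held at a low level by Mdm2, a ubiquitin ligase that is itself a p53 target. DNA damage, stalled transcription and other stresses release p53 from this control, mostly by stabilising the protein and not by raising its mRNA. The released protein binds paired elements near its targets and raises transcription of genes for cell cycle arrest, cell death, DNA repair and its own feedback. In activated B cells, which divide fast and cut their own immunoglobulin loci, this response is kept in check in part by Bcl6 and Mdm2.

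The study sequenced RNA from 32 libraries in 10 groups, all carrying or controlling for loss of Elof1, which encodes a factor that travels with elongating RNA polymerase II. CH12F3, a mouse B lymphoma line, is the first system, and every CH12F3 group is an Elof1-KO: one genotype was given back ELOF1 (+ELOF1) and the other received Vector alone (+Vector). Both were stimulated with α-CD40, IL4 and TGF-β and sampled at day 1.5 (4 libraries each), day 3 (2 each) and day 7 (2 each). Spleen B cells from wild-type or Elof1-cKO mice are the second system. They were stimulated with IL4 and LPS and sampled at day 2.5 (5 libraries each) and day 3.5 (3 libraries each), so even the earliest spleen libraries come from stimulated cells. The labels used here do not give the Cre line behind the cKO, the animals' ages, or whether the CH12F3 genotypes are single clones. They also do not say that replicates are separate cultures or animals, so p-values measure only the spread between these libraries, which may be technical.

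Mouse gene counts were 7112130 to 15550229 per CH12F3 library and 9807560 to 16359477 per spleen library. Elof1 was at 10.99 to 55.1 CPM (counts per 1000000 mouse counts, after TMM scaling) in the 8 wild-type spleen libraries and at 1.27 to 7.65 in the 8 cKO libraries. In CH12F3 it was at 139.6 to 681 CPM with ELOF1 and at 0.966 to 5.49 with Vector. The spleen marker lists held B cell genes at a summed 6064 to 14133 CPM, T and NK genes at 11.5 to 35.9 and myeloid genes at 10.1 to 31.7, with S100a8 and S100a9 at 0. The library numbers in the labels fall into 2 runs far apart: 8 libraries are numbered 15 to 22, called the first series below, and 24 have much higher numbers, called the second series. The first series holds only day 1.5 and day 2.5 libraries, and its mitochondrial share of counts in spleen was 2.90% to 3.55% against 0.484% to 1.42% in the second. Every fit therefore carried a term for the series. That term passed the threshold for 11 of the 34 spleen members and 15 of the 34 CH12F3 members, against 40.3% and 38.5% of all genes tested.

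Promoter sequence was available from RefSeq (build GRCm38.p6) for 28 of the 36 members, as windows from 250 bases before to 50 after each start. The windows were searched for a paired core like that of the p53 element: 2 copies of CNNG, each with A or T at its inner places, and 6 bases of any kind between them, a pattern that reads the same on both strands. It was found in 7 of 28 members (25%) and in 8.19% of all 27025 genes with a window. A p53 half-site was found in 13 of 28 members (46.4%) and in 9.55% of all genes, and the searches overlap. The lines below are the 30-base stretches of all 7, with the 2 cores in capitals.
Cdkn1a, chr17:29090923-29090952, plus strand: ttcaggaaCATGtcttgaCATGttcagccc
Bbc3, chr7:16309481-16309510, plus strand: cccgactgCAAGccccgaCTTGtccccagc
Plk2, chr13:110395033-110395062, plus strand: tgctcgctCTTGctcgcaCAAGcgaagcag
Trp53, chr11:69580279-69580308, plus strand: cggaaggaCTTGcccttaCTTGttatggcg
Aen, chr7:78895932-78895961, plus strand: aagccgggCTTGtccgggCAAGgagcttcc
Rps27l, chr9:66946291-66946320, plus strand: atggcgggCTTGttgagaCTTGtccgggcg
Tigar, chr6:127109741-127109770, minus strand: gcggcggtCTAGctctggCAAGactccagg

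The element in Cdkn1a begins 51 bases before the most upstream RefSeq start used for this gene. Those in Bbc3, Plk2 and Trp53 begin 97, 6 and 75 bases before a RefSeq start of their gene. Of these 7 members, Cdkn1a, Bbc3 and Plk2 rose in a spleen day step described further on, and Trp53, Aen, Rps27l and Tigar did not. Among members with a window, the core was thus in 3 of the 10 that rose and in 4 of the 18 others. The Cdkn1a stretch is shown in its setting, the 250 bases upstream of that most upstream start (chr17:29090729-29090978, plus strand, 54% G or C). Cdkn1a was chosen as the member with the largest rise among those that passed the test in spleen wild-type cells.
Cdkn1a upstream: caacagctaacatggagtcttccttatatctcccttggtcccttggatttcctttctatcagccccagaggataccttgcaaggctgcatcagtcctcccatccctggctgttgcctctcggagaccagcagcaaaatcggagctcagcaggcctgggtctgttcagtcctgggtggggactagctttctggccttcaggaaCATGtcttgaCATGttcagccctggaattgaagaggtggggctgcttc
A match describes these letters and is not a measured binding site.

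From day 2.5 to day 3.5 of culture, wild-type spleen B cells raised 13 of the 34 tested members and lowered none (edgeR quasi-likelihood test, adjusted p below 0.05 over 13367 genes). Of all genes tested, 5.45% changed, 4.17% upwards. The median member was 0.46 higher on the log2 scale, against 0.006 for all genes, and 28 of 34 members had a positive change. Elof1-cKO cells raised 12 members and lowered none, where 3.4% of all genes changed and 2.72% rose, and their median member was 0.52 higher. The 2 lists shared 11 members, 84.6% of the wild-type list and 91.7% of the cKO list. In these bulk libraries, a change in the share of one kind of cell and a change in RNA per cell cannot be told apart.

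**Figure D1:**
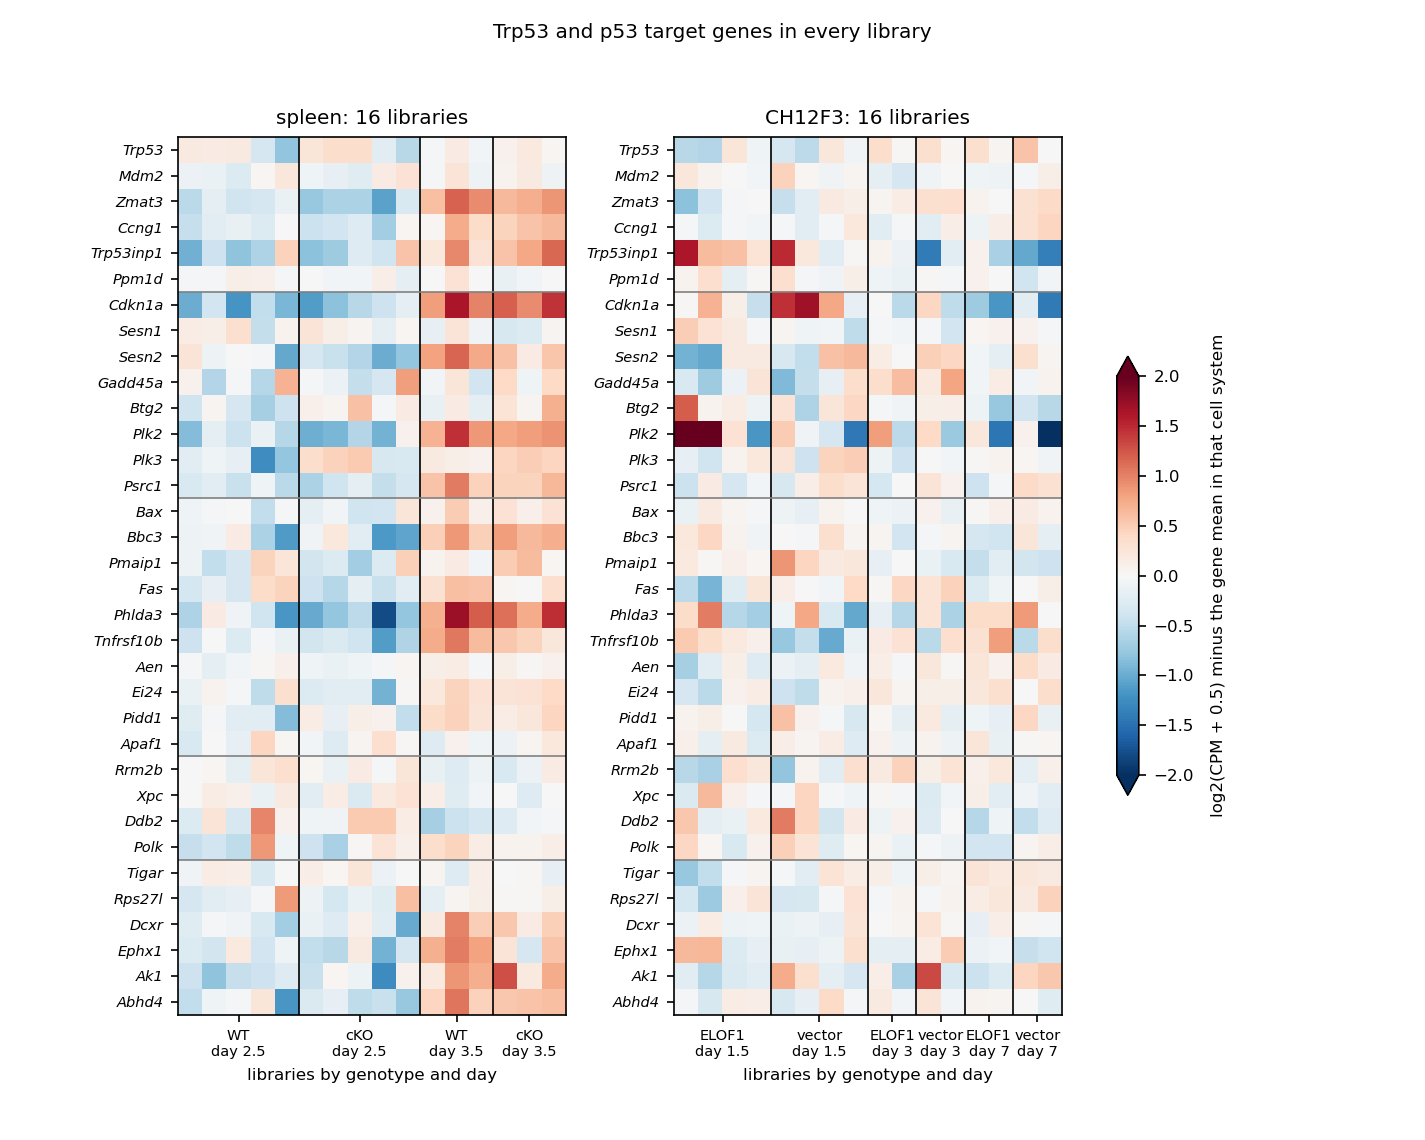
Level of the 34 tested p53 genes in every library, as log2(CPM + 0.5) minus the gene's mean over its system, with colours ending at 2 above and below. Each column is a library and each line a gene grouped by role; the spleen day 3.5 libraries of both genotypes are above the day 2.5 libraries for Cdkn1a, Zmat3, Plk2, Psrc1 and Phlda3.

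Trp53 and Mdm2, the centre of the circuit, did not pass the test at either step. Trp53 was at 229.6, 227.8, 230.1, 161 and 117 CPM in wild-type cells at day 2.5 and at 199, 226.2 and 196 at day 3.5. In cKO cells it was at 239, 258, 259.6, 173 and 137, then 215.6, 232 and 207.6. The lowest 2 values of each day 2.5 group were the first-series libraries, and the days overlapped in both genotypes. Among second-series libraries alone, every day 3.5 value of Trp53 was below every day 2.5 value of the same genotype. The change was -0.14 ± 0.11 (log2, SE) in wild-type (adjusted p = 0.55) and -0.21 ± 0.11 in cKO cells (adjusted p = 0.38). Mdm2 was at 93.1, 91.3, 82.9, 103 and 117 CPM, then 99.3, 121 and 93.8, in wild-type cells, and at 94.8, 89.4, 85.3, 113 and 123, then 106, 113 and 94.1, in cKO cells. Its days overlapped too, with changes of 0.25 ± 0.10 (adjusted p = 0.19) and 0.20 ± 0.10 (adjusted p = 0.35). Among second-series libraries alone, Mdm2 was higher in every wild-type day 3.5 library than at day 2.5, and the cKO days still overlapped. The share of all genes that separate in this way was not counted, so nothing is read from these orderings.

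Of the 6 core and feedback genes, 3 rose in each genotype: Zmat3, Ccng1 and Trp53inp1. Zmat3, an RNA-binding protein of the p53 response, was at 43.2, 55.0, 48.0, 49.99 and 57.9 CPM in wild-type cells at day 2.5 and at 96.6, 144 and 123 at day 3.5. In cKO cells it was at 37.2, 40.8, 40.8, 30.0 and 51.0, then 99.9, 106 and 117. Every day 3.5 library was above every day 2.5 library, and the rise was 1.29 ± 0.16 (adjusted p = 0.00034) in wild-type and 1.46 ± 0.16 (adjusted p = 0.00022) in cKO cells. Ccng1 encodes cyclin G1, which feeds back on Mdm2. It was at 155, 183, 193, 177 and 213.4 CPM, then 218.98, 359 and 275, in wild-type cells, and at 158, 163, 179, 132 and 219.9, then 292, 318 and 335, in cKO cells. The days did not overlap in either genotype, though the lowest wild-type day 3.5 library lay just above the highest day 2.5 library. Ccng1 rose by 0.67 ± 0.17 (adjusted p = 0.030) and 0.93 ± 0.17 (adjusted p = 0.0060). Trp53inp1, a nuclear partner of p53 linked to autophagy and death, was at 25.1, 36.9, 28.3, 32.2 and 68.2 CPM, then 57.6, 96.5 and 60.9, in wild-type cells, and at 27.8, 30.2, 41.5, 37.4 and 73.9, then 73.8, 84.9 and 110.4, in cKO cells. The highest day 2.5 library of each genotype, a first-series library, reached into the day 3.5 range. The fitted rises, which allow for the series, were 1.26 ± 0.28 (adjusted p = 0.015) and 1.43 ± 0.27 (adjusted p = 0.0085).

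Among the 8 genes of arrest and growth control, 4 rose in both genotypes: Cdkn1a, Plk2, Psrc1 and Sesn2. Cdkn1a encodes p21, the inhibitor of cyclin-dependent kinases. It was at 15.3, 23.7, 13.4, 21.7 and 16.1 CPM in wild-type cells at day 2.5 and at 55.6, 96.8 and 61.7 at day 3.5. In cKO cells it was at 13.9, 17.2, 20.9, 22.9 and 27.1, then 71.3, 59.8 and 84.8. The days were far apart in both genotypes, and the genotypes overlapped at each day. Its rise was 2.12 ± 0.23 in wild-type cells, 4.34-fold (adjusted p = 0.00018), and 1.96 ± 0.23 in cKO cells, 3.89-fold (adjusted p = 0.00046). By p-value Cdkn1a ranked 6th of the 13367 genes in the wild-type step and 7th in the cKO step.

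Plk2, a polo-like kinase, was at 4.07, 6.90, 5.71, 7.09 and 5.12 CPM, then 13.0, 22.5 and 14.7, in wild-type cells, and at 3.74, 3.93, 5.09, 3.82 and 8.37, then 13.8, 14.5 and 15.02, in cKO cells. The days did not overlap, and Plk2 rose by 1.67 ± 0.26 (adjusted p = 0.0020) and 1.67 ± 0.27 (adjusted p = 0.0029). Psrc1, a microtubule-associated protein, was at 30.1, 32.3, 27.4, 35.0 and 25.5 CPM, then 55.9, 77.1 and 51.7, in wild-type cells, and at 23.9, 28.2, 32.9, 26.6 and 29.5, then 51.2, 51.0 and 59.3, in cKO cells. It rose by 1.04 ± 0.15 (adjusted p = 0.0011) and 0.93 ± 0.15 (adjusted p = 0.0029), again with no overlap between days. Sesn2, a stress protein that restrains mTORC1, was at 81.1, 62.8, 67.6, 65.7 and 33.0 CPM, then 118, 152 and 114, in wild-type cells. In cKO cells it was at 53.1, 49.4, 44.7, 33.7 and 39.1, then 102, 75.2 and 99.2. The days did not overlap, with rises of 0.88 ± 0.18 (adjusted p = 0.012) and 0.89 ± 0.19 (adjusted p = 0.014).

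**Figure D2:**
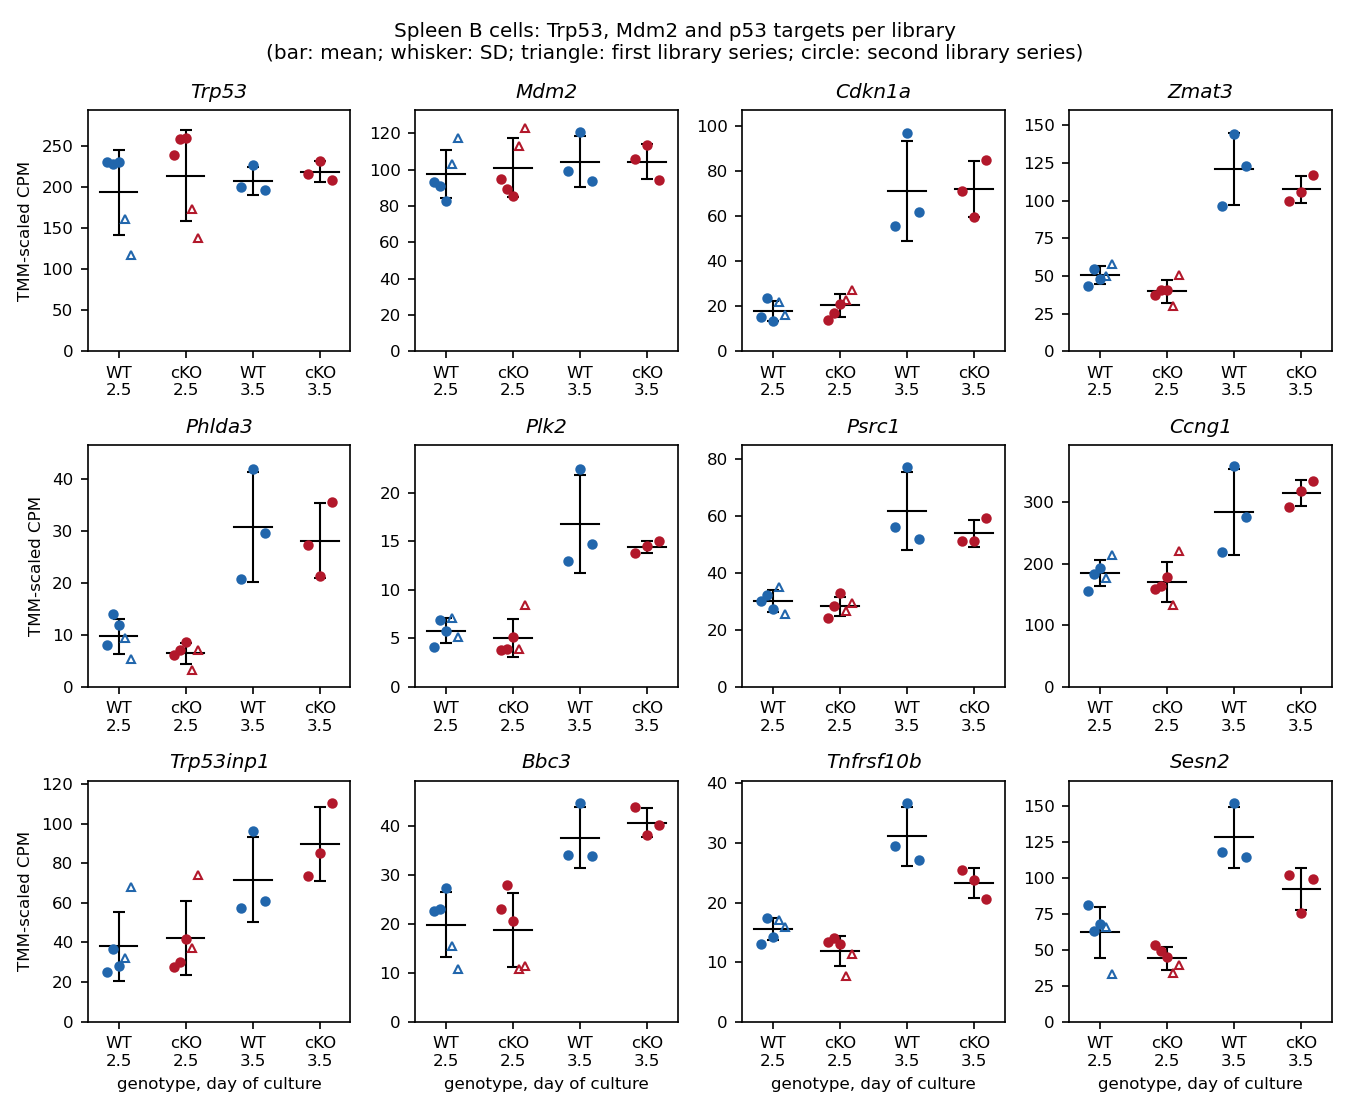
CPM of 12 p53 genes in spleen B cells by genotype and day. Bars are group means, whiskers the SD, triangles first-series and circles second-series libraries; Cdkn1a stands at 13.4 to 27.1 CPM at day 2.5 and at 55.6 to 96.8 at day 3.5 over both genotypes, while Trp53 and Mdm2 overlap between days.

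The death group counts 12 genes, 10 of them tested, and 5 rose in each genotype. Phlda3, a pleckstrin-domain inhibitor of Akt, was at 7.93, 14.0, 11.9, 9.32 and 5.29 CPM, then 20.8, 41.9 and 29.5, in wild-type cells, and at 5.99, 7.13, 8.58, 3.25 and 7.10, then 27.3, 21.3 and 35.6, in cKO cells. The days did not overlap, and the rises were 1.48 ± 0.29 (adjusted p = 0.0078) and 1.91 ± 0.30 (adjusted p = 0.0022). Tnfrsf10b, a TRAIL death receptor, was at 13.0, 17.5, 14.3, 17.1 and 15.9 CPM, then 29.5, 36.7 and 27.2, in wild-type cells, and at 13.4, 14.1, 13.1, 7.74 and 11.3, then 25.4, 23.8 and 20.5, in cKO cells. It rose by 0.93 ± 0.18 (adjusted p = 0.0065) and 0.91 ± 0.17 (adjusted p = 0.0085), with no overlap between days. Bbc3 encodes PUMA, a BH3-only activator of mitochondrial death. It was at 22.6, 23.1, 27.4, 15.5 and 10.8 CPM, then 34.1, 44.9 and 34.0, in wild-type cells, and at 23.0, 28.04, 20.6, 10.7 and 11.4, then 43.8, 38.1 and 40.3, in cKO cells. The days did not overlap, and Bbc3 rose by 0.59 ± 0.15 (adjusted p = 0.031) and 0.81 ± 0.15 (adjusted p = 0.0063).

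Fas, the death receptor for Fas ligand, was at 11.7, 13.4, 11.8, 19.5 and 20.7 CPM, then 18.7, 23.2 and 22.6, in wild-type cells, and at 11.2, 10.02, 13.2, 10.9 and 12.7, then 15.6, 15.1 and 19.1, in cKO cells. The 2 highest wild-type day 2.5 libraries, both of the first series, overlapped with day 3.5, and the cKO days did not overlap. Fas rose by 0.66 ± 0.17 in both (adjusted p = 0.032 and 0.038). The remaining death genes that rose did so past the threshold in 1 genotype each. Pidd1, which builds the caspase-2 platform, was at 33.2, 38.5, 33.5, 33.3 and 21.2 CPM, then 50.5, 54.0 and 47.1, in wild-type cells (0.56 ± 0.16, adjusted p = 0.049), and at 43.5, 35.1, 42.4, 41.9 and 27.8, then 43.6, 46.2 and 52.8, in cKO cells (0.21 ± 0.16, adjusted p = 0.59). The wild-type days were apart, and the highest cKO day 2.5 library nearly met the lowest at day 3.5. Pmaip1, which encodes the BH3-only protein NOXA, was at 24.0, 18.2, 20.3, 34.9 and 30.5 CPM, then 27.0, 28.7 and 24.7, in wild-type cells (0.35 ± 0.18, adjusted p = 0.32), and at 19.8, 21.2, 15.6, 21.2 and 35.7, then 36.7, 40.1 and 26.4, in cKO cells (0.88 ± 0.18, adjusted p = 0.012). Its days overlapped in both genotypes. Bax, the pore-forming effector and the most abundant member per kilobase in spleen, was at 67.5 to 96.0 CPM and then 102 to 136 in wild-type cells, and at 72.3 to 113 and then 102 to 117 in cKO cells. Its wild-type change of 0.35 did not pass the test (adjusted p = 0.25).

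None of the 4 repair and nucleotide genes (Xpc, Ddb2, Polk and Rrm2b) passed the test in either genotype, and their median change was -0.12 in wild-type and -0.06 in cKO cells. Ddb2, the damage sensor of nucleotide excision repair, was at 9.62, 14.1, 9.22, 23.4 and 12.5 CPM in wild-type cells at day 2.5 and at 7.20, 8.58 and 9.11 at day 3.5, a change of -0.51 ± 0.25 (adjusted p = 0.29). Polk, a translesion polymerase, went the other way, with a wild-type change of 0.70 (adjusted p = 0.060). In the group of 6 metabolic and other targets, Ephx1 alone passed, and in wild-type cells. Ephx1, an epoxide hydrolase, was at 5.16, 4.84, 7.37, 4.76 and 5.95 CPM, then 10.7, 13.5 and 11.5, in wild-type cells (0.98 ± 0.26, adjusted p = 0.039), and at 4.40, 4.17, 7.29, 3.06 and 4.94, then 7.74, 4.95 and 9.69, in cKO cells (0.54 ± 0.27, adjusted p = 0.34). Only the wild-type days were apart. Ephx1 shares exon sequence with Gm36961 on the same strand, so its reads are uncertain. Ak1, an adenylate kinase, had a larger but less precise wild-type change of 1.84 ± 0.63 (adjusted p = 0.11).

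The 14 members that rose in either genotype had gene spans of 3.0 to 44.7 kb with a median of 9.15 kb, and the 20 that did not had spans of 1.9 to 97.9 kb with a median of 16.8 kb. Wild-type day 3.5 replicate 2 was the highest of the 3 day 3.5 libraries for each of the 13 members that rose in wild-type cells. Without it, 5 members passed the test in place of 13. Without wild-type day 2.5 replicate 1 or 3 there were 7, and without day 2.5 replicate 2 or day 3.5 replicate 3 there were 8. The share of all genes called in these refits is not given here, so the counts do not show whether members depended on a library more than all genes did. Cdkn1a, Plk2, Psrc1, Tnfrsf10b and Zmat3 passed in wild-type cells whichever 1 of the 8 wild-type libraries was left out. In cKO cells 7 passed whichever 1 of the 8 cKO libraries was left out: Bbc3, Ccng1, Cdkn1a, Phlda3, Plk2, Psrc1 and Zmat3. With replicate numbers of the wild-type libraries paired across days, 20 members rose, where 15.7% of all genes changed. Within the second series alone, which holds 3 libraries at each day, 19 members rose in wild-type and 15 in cKO cells, with 15.6% and 13.1% of all genes changed.

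Scaled to the fly spike-in in place of the mouse total, the median of all genes moved to -0.079 in the wild-type step and -0.222 in the cKO step, and the median member to 0.370 and 0.280. With this scaling 6 members rose in wild-type cells (Cdkn1a, Zmat3, Plk2, Psrc1, Phlda3 and Trp53inp1; background 1.25%) and 4 in cKO cells (Cdkn1a, Zmat3, Plk2 and Phlda3; background 0.456%). Cdkn1a then rose by 1.99 ± 0.22 (adjusted p = 6.8e-06) and 1.72 ± 0.22 (adjusted p = 0.00024). Plasma cell genes moved over the same interval. Their summed level was 1000.2 to 1393 CPM and then 1668 to 2277 in wild-type cells, and 965 to 1146 and then 1521 to 1868 in cKO cells. Of the 6 tested, 2 rose in wild-type and 3 in cKO cells, where 4.17% and 2.72% of all genes rose. Jchain, the joining chain of secreted antibody, rose by 2.18 ± 0.38 (adjusted p = 0.0038) and 2.16 ± 0.41 (adjusted p = 0.0085). None of the 8 B cell genes passed in either genotype, where 5.45% and 3.4% of all genes did. The part of these cells in the p53 gene changes was not tested.

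Whether loss of Elof1 changes the day step was tested as the difference between the cKO and wild-type steps. No member passed, nor did any of the 13367 genes (background 0%). At an unadjusted p below 0.05 there were 2 members and 278 genes (2.08%) in edgeR, and DESeq2 also called 0. Of the 34 intervals, 32 included 0. For Cdkn1a the difference was -0.16 (95% interval -0.80 to 0.49), an interval that does not reach the size of the wild-type rise. For Zmat3 it was 0.17 (-0.29 to 0.62), for Psrc1 -0.11 (-0.53 to 0.32), for Plk2 -0.00 (-0.81 to 0.81) and for Phlda3 0.43 (-0.40 to 1.27). Over the 14 members that rose in either genotype, the differences ran from -0.44 for Ephx1 to 0.53 for Pmaip1, and the interval bounds from -1.19 to 1.27. The pair whose intervals left out 0 were Pmaip1 at 0.53 ± 0.24 (0.01 to 1.04, unadjusted p = 0.045) and Plk3 at -0.31 ± 0.13 (-0.59 to -0.03, unadjusted p = 0.030), both with an adjusted p of 1.0. Members that passed in 1 genotype, such as Pidd1 at -0.35 (-0.80 to 0.10), are thus not shown to differ between genotypes. Trp53 differed by -0.07 (-0.38 to 0.24) and Mdm2 by -0.05 (-0.33 to 0.24).

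**Figure D3:**
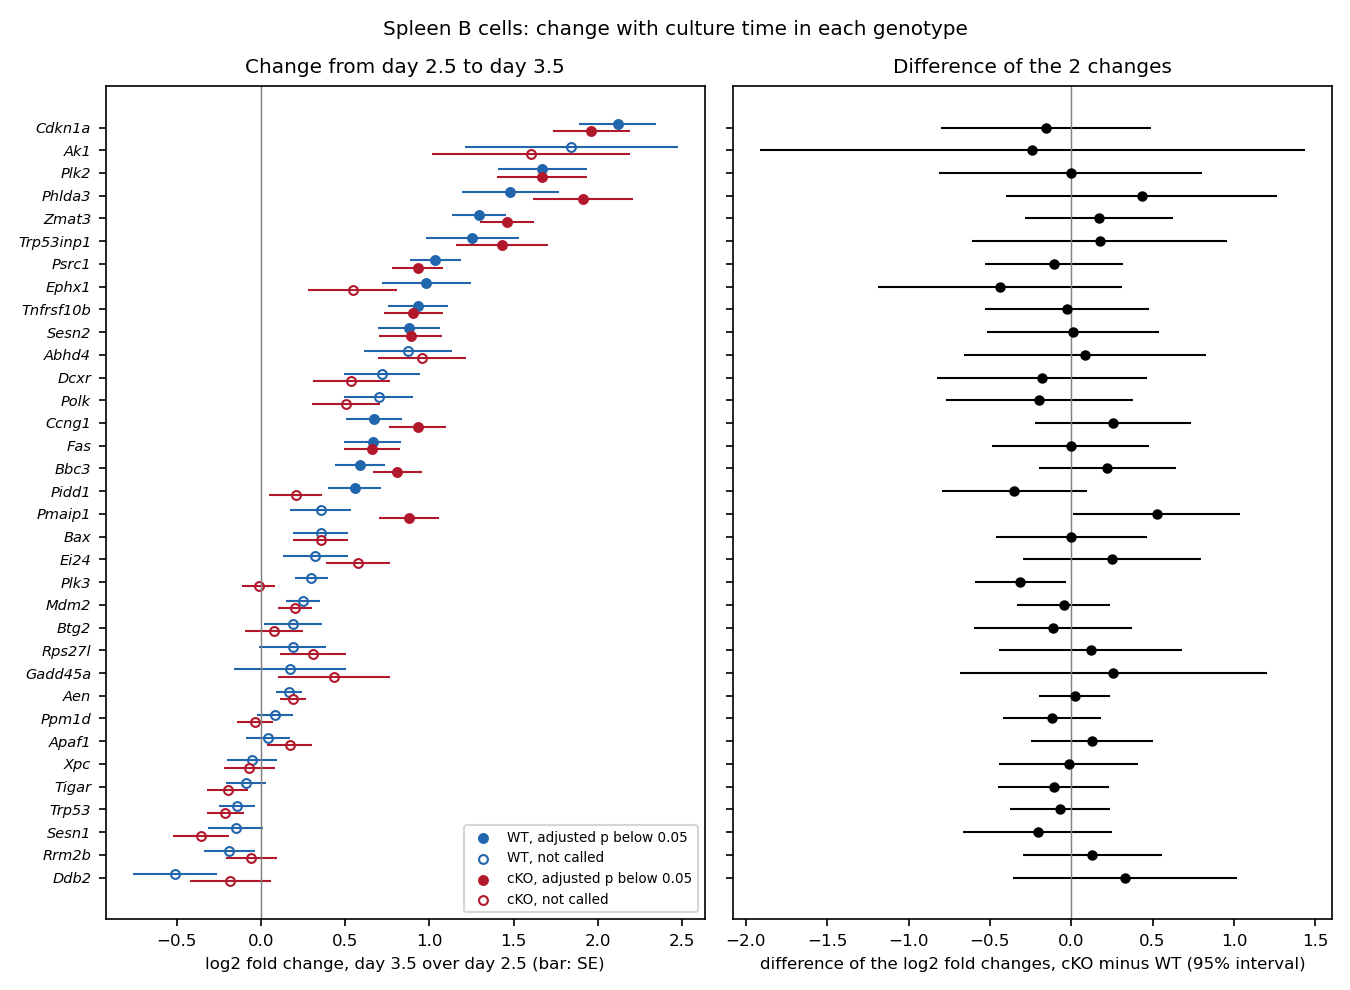
Left, log2 change from day 2.5 to day 3.5 of each tested p53 gene with its SE in wild-type and cKO spleen B cells; right, the difference cKO minus wild-type with its 95% interval. Cdkn1a lies at 2.12 and 1.96 on the left, and 32 of the 34 intervals on the right include 0.

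At day 2.5 itself, cKO spleen cells had more Plk3 and Btg2 than wild-type cells, and the other 32 tested members did not pass (background 5.18%, with 2.82% of all genes higher). The count of members called is close to that background, so nothing is read from it about the members as a set. Plk3, a stress-responsive polo-like kinase, was at 42.7, 46.9, 44.3, 20.8 and 28.9 CPM in wild-type and at 63.7, 68.9, 71.7, 39.8 and 40.2 in cKO libraries. The low 2 libraries of each group were the first series, and within each series the genotypes did not overlap. The change was 0.64 ± 0.08 (adjusted p = 0.00039), and it was 0.67 ± 0.26 within the first series (adjusted p = 1.0) and 0.60 ± 0.08 within the second (adjusted p = 0.00019). Leaving out any 1 of the 10 libraries gave 0.57 to 0.70, each past the threshold. With fly scaling the Plk3 change was 0.48 (adjusted p = 0.35), where the median of all genes was -0.144. Without the series term its adjusted p was 0.18. Plk3 overlaps an exon of Tctex1d4 on the opposite strand, and the use of strand in counting is not given in the sources used here.

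Btg2, an antiproliferative gene induced early in the p53 response, was at 104, 142, 108, 86.4 and 102 CPM in wild-type and at 147, 143, 205, 135 and 154 in cKO libraries at day 2.5. The lowest cKO value lay under the highest wild-type value, and Btg2 was 0.54 ± 0.14 higher in cKO cells (adjusted p = 0.036). It lost the threshold without any one of 5 libraries (wild-type replicates 1, 3 and 4, and cKO replicates 3 and 5), which left Plk3 as the 1 member called. Trp53 (0.15 ± 0.09, adjusted p = 0.44), Cdkn1a (0.17 ± 0.19, adjusted p = 0.75) and Mdm2 (0.05 ± 0.08, adjusted p = 0.86) did not pass. Sesn2 was lower in cKO cells by a margin that did not pass (-0.49 ± 0.16, adjusted p = 0.087), and within the second series the value was -0.53 ± 0.13 (adjusted p = 0.019).

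At day 3.5 no member passed between genotypes, where 2.07% of all genes did (6 members and 13.5% of all genes had an unadjusted p below 0.05 in edgeR, and DESeq2 called Plk3 with 4.24% of all genes). Plk3 was at 56.6, 54.1 and 52.6 CPM in wild-type and at 67.1, 70.3 and 67.2 in cKO libraries, which do not overlap (0.32 ± 0.10, adjusted p = 0.13; 0.04 with fly scaling, where the median of all genes was -0.287). Btg2 was at 123, 153 and 121 against 166, 142 and 224.96 CPM, which overlap (0.42, adjusted p = 0.30). Among the 18 members checked for such separation, Ephx1 (-0.67, adjusted p = 0.27), Sesn2 (-0.48, adjusted p = 0.27) and Tnfrsf10b (-0.42, adjusted p = 0.31) were lower in every cKO library than in every wild-type library at this day. The share of all genes that separate in this way was not counted, so nothing is read from these orderings or from that of Plk3. Cdkn1a differed by 0.01 ± 0.23 (adjusted p = 0.99), Trp53 by 0.08 ± 0.12 (adjusted p = 0.88) and Mdm2 by -0.00 ± 0.11 (adjusted p = 1.0). The wild-type and cKO comparisons at each day use the same libraries as the day steps.

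**Figure D4:**
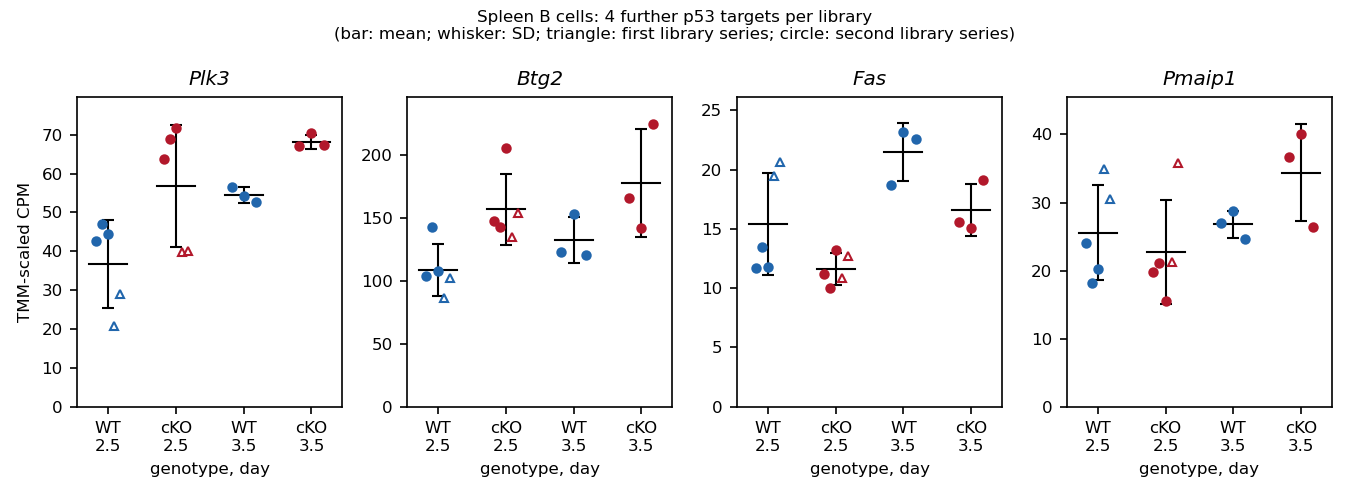
CPM of 4 further p53 targets in spleen B cells by genotype and day, with bars for means, whiskers for the SD, triangles for first-series and circles for second-series libraries. Plk3 is at 20.8 to 46.9 CPM in wild-type and 39.8 to 71.7 in cKO cells at day 2.5, and at 52.6 to 56.6 against 67.1 to 70.3 at day 3.5.

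In CH12F3 cells at day 1.5, Sesn2 was the 1 member of 34 that differed between +Vector and +ELOF1 cells, against 1.15% of all 14201 genes (0.606% higher with Vector). It was at 108, 103, 238 and 237 CPM with ELOF1 and at 167, 149, 314 and 329.6 with Vector. The first 2 values of each group are the first series, and within each series the genotypes did not overlap. Sesn2 was 0.51 ± 0.08 higher with Vector (adjusted p = 0.0085), and it passed whichever 1 of the 8 day 1.5 libraries was left out. Within the first series the value was 0.56 ± 0.15 (adjusted p = 0.23) and within the second 0.43 ± 0.10 (adjusted p = 0.42). In spleen cells at day 2.5 the difference of cKO from wild-type had the opposite sign for this gene and did not pass.

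The remaining CH12F3 members at day 1.5 did not pass without pairing. Cdkn1a was at 6.82, 11.2, 7.29 and 4.69 CPM with ELOF1 and at 19.3, 22.8, 11.8 and 5.93 with Vector. Each Vector library was above the ELOF1 library of the same number, but the groups overlapped, and the difference was 0.89 ± 0.34 (adjusted p = 0.25). Plk2 was at 24.7, 11.7, 2.51 and 0.595 CPM with ELOF1 and at 2.99, 1.83, 1.44 and 0.414 with Vector (-2.04 ± 0.85, adjusted p = 0.31). Within +ELOF1 cells alone its level spanned 0.595 to 24.7 CPM, and the groups overlapped. Tnfrsf10b was at 6.82, 5.96, 5.33 and 4.96 CPM with ELOF1 and at 2.49, 3.15, 2.01 and 4.14 with Vector (-0.93 ± 0.30, adjusted p = 0.17), with no overlap. Sesn1, a relative of Sesn2, was at 86.9, 75.3, 70.0 and 59.9 CPM against 64.0, 58.2, 59.1 and 43.1 (-0.38 ± 0.11, adjusted p = 0.13), with overlap. Trp53 was at 192, 188, 331 and 265 CPM with ELOF1 and at 223.3, 195, 328 and 269 with Vector (0.07 ± 0.13, adjusted p = 0.90). Mdm2 was at 78.5, 70.0, 67.2 and 64.5 against 92.0, 68.7, 63.6 and 69.5 CPM (0.06 ± 0.09, adjusted p = 0.85).

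With same-numbered CH12F3 libraries paired at day 1.5, 7 members passed, where 8.6% of all genes did. Higher with Vector were Sesn2 (0.51 ± 0.06, adjusted p = 0.00013), Cdkn1a (0.89 ± 0.19, adjusted p = 0.0061), Fas (0.47 ± 0.11, adjusted p = 0.011) and Pmaip1 (0.33 ± 0.09, adjusted p = 0.037). Lower were Plk2 (-2.16 ± 0.39, adjusted p = 0.0023), Sesn1 (-0.38 ± 0.08, adjusted p = 0.0047) and Tnfrsf10b (-0.94 ± 0.24, adjusted p = 0.019). Of the members that passed when paired, Cdkn1a was 1.19 ± 0.29 higher within the first series and 0.55 ± 0.52 within the second (adjusted p = 0.20 and 0.93). Plk2 changed by -2.94 ± 0.45 within the first series (adjusted p = 0.0503). Its second-series libraries overlapped, at 2.51 and 0.595 CPM with ELOF1 and at 1.44 and 0.414 with Vector.

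**Figure D5:**
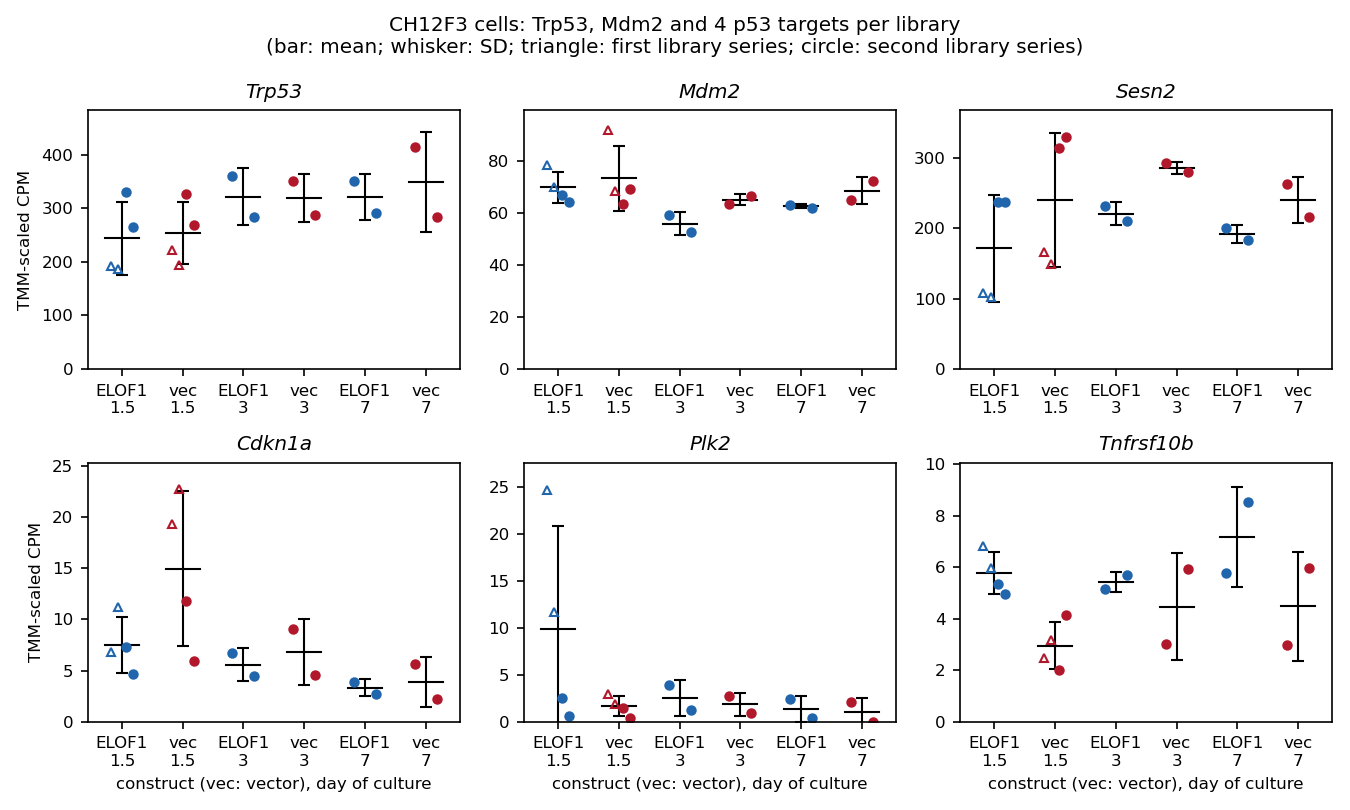
CPM of 6 p53 genes in CH12F3 cells by genotype (+ELOF1 or +Vector) and day (1.5, 3 and 7), with bars for means, whiskers for the SD, triangles for first-series and circles for second-series libraries. Sesn2 is at 103 to 238 CPM with ELOF1 and 149 to 329.6 with Vector at day 1.5; Cdkn1a is at 2.72 to 11.2 with ELOF1 and 2.19 to 22.8 with Vector over all days.

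At days 3 and 7 no member passed between the CH12F3 genotypes. Of all genes 0.00704% passed at day 3 and 0.0352% at day 7. At an unadjusted p below 0.05 in edgeR there was 1 member (4.15% of all genes) at day 3 and there were 5 (5.7%) at day 7, and DESeq2 called 0 members at both (0.0845% and 0.183% of all genes). Sesn2 was at 232 and 209.8 CPM with ELOF1 and at 292 and 280.1 with Vector at day 3 (0.37 ± 0.11, adjusted p = 0.98), and at 201 and 183 against 263 and 216.8 at day 7 (0.32 ± 0.11, adjusted p = 0.75). The Vector libraries were the higher ones at both days. Cdkn1a was at 6.69 and 4.44 against 9.09 and 4.53 CPM at day 3 (0.29 ± 0.48), and at 3.91 and 2.72 against 5.62 and 2.19 at day 7 (0.21 ± 0.51). The groups overlapped at both days. Trp53 was at 360.1 and 284 against 351 and 287 CPM at day 3 (-0.01 ± 0.19), and at 352 and 291 against 415 and 284 at day 7 (0.12 ± 0.19). Mdm2 was at 59.2 and 52.8 against 63.7 and 66.8 CPM at day 3 (0.22 ± 0.13), and at 63.3 and 62.2 against 65.0 and 72.4 at day 7 (0.13 ± 0.13).

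Over time, no member passed in either CH12F3 genotype. Of all genes, 0.00704% passed from day 1.5 to day 3 in each genotype, and 0.0493% with ELOF1 and 0.169% with Vector from day 1.5 to day 7. With ELOF1, 1 member (4.21% of all genes) at day 3 and 4 members (7.6%) at day 7 had an unadjusted p below 0.05 in edgeR, and DESeq2 called 0 at both (0.162% and 0.683%). With Vector there were 2 (6.03%) and 8 (8.58%), and DESeq2 called 0 at day 3 (0.352%) and 2 at day 7 (1.16%), Sesn2 and Pmaip1. From day 1.5 to day 7, Cdkn1a changed by a fitted -0.68 ± 0.47 with ELOF1 (adjusted p = 0.81) and -1.36 ± 0.47 with Vector (adjusted p = 0.34), so the sign was opposite to that of the spleen day step. With Vector, Pmaip1 was at 115, 83.3, 70.0 and 72.4 CPM at day 1.5 and at 47.8 and 46.2 at day 7 (-0.71 ± 0.16, adjusted p = 0.11), with no overlap. From day 1.5 to day 3, Cdkn1a changed by 0.06 ± 0.45 with ELOF1 and -0.55 ± 0.45 with Vector. Trp53 changed by 0.15 ± 0.18 and 0.06 at day 3 and by 0.14 ± 0.18 and 0.19 ± 0.18 at day 7. Mdm2 changed by -0.21 ± 0.12 and -0.05 at day 3 and by -0.05 ± 0.12 and 0.02 ± 0.12 at day 7. The adjusted p of these Trp53 and Mdm2 changes was 0.85 or more.

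Per kilobase of exon, averaged over groups, Bax (115 CPM per kb), Rps27l (79.0), Ccng1 (67.9), Btg2 (52.4) and Trp53 (51.4) led the members in spleen. Cdkn1a ranked 8th at 20.4 CPM per kb, next to Mdm2 at 20.1, with group means of 8.11 and 32.1 in wild-type and 9.19 and 32.4 in cKO cells. In CH12F3 the order was Rps27l (125), Bax (106), Trp53 (74.6) and Sesn2 (64.8), and Cdkn1a ranked 28th of 36 at 3.15. The 2 systems were normalized apart, so only the order within each is given.

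Other lists of related genes were followed through the spleen day steps. The first holds 26 cell cycle genes that p21 represses through the DREAM complex. In wild-type cells 9 of the 26 fell and none rose (1.28% of all genes fell), with a median of -0.33 against 0.006 for all genes. In cKO cells 2 fell (0.688% of all genes fell), with a median of -0.16, and the median of the differences was 0.117 with none passing. Plk1, the mitotic kinase, went from 171 ± 29.1 CPM (SD, n = 5) to 139 ± 14.6 (n = 3) in wild-type cells and fell by 0.47 on the log2 scale in both genotypes (adjusted p = 0.0063 and 0.0082). Birc5, which encodes survivin, went from 110.4 ± 6.66 CPM to 82.6 ± 7.89 in wild-type and from 124 ± 6.23 to 94.2 ± 4.67 in cKO cells (adjusted p = 0.014 and 0.020). Lmnb1, a nuclear lamin, changed by -0.50 ± 0.11 and -0.37 ± 0.11 (adjusted p = 0.017 and 0.090), and Mcm2, a replicative helicase subunit, by -0.35 ± 0.08 and -0.30 (adjusted p = 0.021 and 0.063). With fly scaling none of the 26 passed in either genotype (1.25% and 0.456% of all genes did), at medians of -0.42 and -0.38. Without the series term 2 fell in wild-type and 1 in cKO cells, where 0.486% and 0.322% of all genes fell. Within the second series 15 and 8 did, where 6.4% and 4.49% of all genes fell.

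Of 53 further p53 targets, 47 were tested. In wild-type cells 7 rose and none fell, and in cKO cells 5 rose and none fell, with medians of 0.13 and 0.21. Of all genes, 4.17% and 2.72% rose. Slc19a2, a thiamine transporter, went from 18.4 ± 2.70 to 35.5 ± 6.24 CPM in wild-type and from 16.4 ± 0.581 to 33.8 ± 2.70 in cKO cells (rises of 0.92 ± 0.13 and 1.01 ± 0.13, adjusted p = 0.0011 and 0.0010). Dusp4, a MAP kinase phosphatase, rose by 0.90 ± 0.18 and 0.84 ± 0.18 (adjusted p = 0.0091 and 0.016), and Zfp365 by 1.07 ± 0.24 and 1.61 ± 0.24 (adjusted p = 0.016 and 0.0020). Crip2 rose in wild-type cells (1.91 ± 0.44, adjusted p = 0.018) and did not pass in cKO cells (0.60 ± 0.45, adjusted p = 0.58). With fly scaling 2 and 1 of these targets passed (1.25% and 0.456% of all genes did), and the cKO median was -0.027. Of 28 regulators of p53, 27 were tested, and 2 rose in wild-type cells and none in cKO cells, against the same 4.17% and 2.72% of all genes, and nothing is read from so small a count. Bcl6, the germinal centre repressor of Trp53, was the first, at 11.9 ± 2.04 and then 22.7 ± 4.60 CPM (0.81 ± 0.18, adjusted p = 0.017; 0.31 ± 0.18 in cKO, adjusted p = 0.45). Cdkn2a, whose Arf product holds back Mdm2, was the other (0.87 ± 0.24, adjusted p = 0.049; 0.59 ± 0.24 in cKO, adjusted p = 0.24). With fly scaling no regulator passed, against the same 1.25% and 0.456% of all genes.

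Across the 16 spleen libraries, the 5 genes whose log2(CPM + 0.5) followed that of Cdkn1a most closely among 13242 genes were Psrc1 (Pearson r = 0.957), Hpgds (0.951), Plk2 (0.946), Slc19a2 (0.945) and Igkv1-110 (0.942). Psrc1 and Plk2 are members, and Slc19a2 belongs to the list of further targets. Hpgds, a prostaglandin D synthase, rose by 1.30 ± 0.16 in wild-type and 1.15 ± 0.16 in cKO cells (adjusted p = 0.00039 and 0.0014). The next members were Zmat3 (0.914, place 23), Ccng1 (0.873, place 71), Phlda3 (0.870, place 77) and Trp53inp1 (0.839, place 149). These points share libraries and the day step, so the r values describe likeness only.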

How the data were processed

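RNA was measured in 32 libraries of mouse B cells with fly S2 cells added as a spike-in. Reads were mapped with Bowtie2 to mm10 and dm6 and counted with featureCounts, per the submitters' processing notes (no versions, strand setting or rule for multiple hits given in the sources used here). The deposited files hold raw counts per gene, 1 table per cell system. RNA was depleted of ribosomal RNA and made into strand-specific libraries, per the labels' protocols. Symbols came from GENCODE vM21.

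Each table was fitted once over its 16 libraries with edgeR 4.0.16 (quasi-likelihood test, TMM normalization on mouse genes, filterByExpr with a minimum count of 10) with terms for group and for library series. P-values were adjusted over all genes tested (Benjamini-Hochberg, threshold 0.05), and every adjusted p in the text is from this test unless another is named. Changes are log2 values with their SE, and intervals are 95%. CPM values are counts per 1000000 mouse counts of the TMM-scaled library size. The members and lists were chosen with earlier results of these data known. Named were Elof1, then Trp53, Cdkn1a and Mdm2 in every comparison, every member past the threshold in 1 comparison or more, up to 4 examples per list by smallest adjusted p in the wild-type day step, and the 5 genes most like Cdkn1a; other members appear as examples chosen after their values were seen.

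All 42 replicate pairs differed by more than sampling noise (chi-square over degrees of freedom 3.2 to 124), so each library counts once. Labels give groups shared replicate numbers. Deviations from a fit with the group and series terms were compared between same-numbered libraries. They correlated at 0.17 to 0.26 for the CH12F3 genotypes at day 1.5 and at 0.148 to 0.198 for the wild-type spleen days. Each of these pairs was over 0.1, so these groups were taken as paired from the data, and blocked values stand beside them. The other groups were not: either not every pair was over 0.1, or, for the CH12F3 genotypes at days 3 (0.498) and 7 (0.337), there were only 2 pairs, whose correlations are equal by construction, and 3 were required. Alternatives were DESeq2 1.42.0, its size factors, fly scaling, no filter, no series term, each series alone and a replicate block. Each library of the compared groups was also left out in turn. In data simulated for the wild-type spleen step (13160 genes), 74% of genes changed 2-fold and 94% of those changed 3-fold were recovered, with 4 false calls. For CH12F3 with ELOF1 from day 1.5 to day 3 (13793 genes), 66% and 90% were recovered with 6 false calls. The simulated counts had no series effect and no link between libraries, and genes of low mean CPM were left out of the changed set. These rates therefore may not hold for the real libraries or for low members.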

Additional observations from a re-analysis of the deposited data

Results flagged for a closer look

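In 6 of the 72 group values tested for a library far from the rest of its group, 1 library stood apart (chance alone gives about 1 in 20). In spleen cells these were Trp53inp1 at 68.2 CPM in wild-type day 2.5 replicate 5 (next 36.9), Btg2 at 205 CPM in cKO day 2.5 replicate 3 (next 154) and Pmaip1 at 35.7 CPM in cKO day 2.5 replicate 5 (next 21.2). In CH12F3 cells at day 1.5 they were Btg2 at 71.5 CPM in +ELOF1 replicate 1 (next 34.2), Trp53inp1 at 21.3 CPM in +Vector replicate 1 (next 8.55) and Ephx1 at 2.62 CPM in +Vector replicate 4 (next 1.82). Of these 6 libraries, 4 belong to the first series.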

How the results depend on the processing

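Of 170 counts of members recomputed under an alternative, 139 were within 1.5 times the reported count and 31 were not. Most of the 12 comparisons had a reported count of 0, and a 0 that stayed 0 was counted as within. These numbers therefore say little about the comparisons with calls. None of the 28 reported gene changes past the threshold changed sign in 427 alternative values, though 84 of these values lost the threshold. In the wild-type spleen step, where 13 passed, 6 passed with fly scaling (1.25% of all genes) and 5 to 15 on leaving out 1 library. In the cKO step, where 12 passed, 4 passed with fly scaling (0.456%) and 8 to 13 on leaving out 1 library. For the refits without 1 library, the share of all genes called is not given here. Between spleen genotypes at day 2.5, where 2 passed, the count was 0 with fly scaling (0.696% of all genes), 0 without the series term (1.52%) and 0 in the first series alone (0%). It was 4 without the filter (3.76% of all genes) and 1 to 3 on leaving out 1 library. At day 3.5, where none passed, it was 1 with DESeq2 (4.24% of all genes), 1 without the filter (2.21%) and 2 in the second series alone (9.38%). In CH12F3 cells at day 1.5, where 1 passed, the count was 0 with fly scaling (0.317% of all genes) and 0 without the series term (0.155%). It was also 0 in the first series alone (0.403%) and in the second alone (0%). It was 5 without the filter (3.04% of all genes) and 1 on leaving out any of the 8 day 1.5 libraries. Over CH12F3 time, where none passed, the counts without the filter were 1 (+ELOF1 to day 7, 0.936% of all genes), 1 (+Vector to day 3, 0.559%) and 4 (+Vector to day 7, 1.49%), and 2 with DESeq2 in the last (1.16%). Leaving out a library gave 0 in every other comparison. The first series alone holds no other comparison. The cause of these shifts was not tested.

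With the replicate block, 20 members passed in the wild-type step (15.7% of all genes), 16 in the cKO step (13.3%), 7 between CH12F3 genotypes at day 1.5 (8.6%) and 5 between spleen genotypes at day 2.5 (11.5%). It gave 0 at spleen day 3.5 (6.21% of all genes), for the difference of the steps (0%), and at CH12F3 days 3 (0.246%) and 7 (0.493%). For the wild-type and cKO steps the block joined same-numbered libraries across days. For the difference of the steps it joined same-numbered libraries of both genotypes at a day. The difference was not tested with pairing across days. Deviations of same-numbered libraries correlated at 0.011 to 0.184 across the cKO days and at -0.281 to 0.0703 between spleen genotypes at day 3.5, so not every pair was over 0.1. Between spleen genotypes at day 2.5 they correlated at -0.267 to 0.0287 for replicates 1 to 3 and at 0.649 and 0.651 for replicates 4 and 5, the first series, each closest to its own number; these pairs may thus be linked, and the group as a whole was not taken as paired. Of the groups taken as paired, each wild-type spleen library and 5 of the 8 CH12F3 libraries were closest to their own number. Days of CH12F3 were not paired. Depth limits members below a few CPM, such as Perp, Eda2r and Ak1.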
